A study of Mus musculus with 9 samples.

Results

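The clustered protocadherins are cell adhesion molecules of the cadherin superfamily whose genes stand in 3 neighbouring clusters, alpha, beta and gamma, on mouse chromosome 18. Members were taken from the RefSeq annotation of GRCm38.p6 as the genes on that chromosome whose symbols begin with Pcdha, Pcdhb or Pcdhg followed by a number or by a, b or c and a number. The rule found 58 members among 21887 protein-coding genes on 21 chromosomes, of which 14 were alpha, 22 beta and 22 gamma. Pcdhgb8 is annotated as a transcribed pseudogene and was kept. The data are peak lists from MYCN-driven T cell lymphoma cells, taken from the thymus of mice of the C57BL/6J strain and profiled by ChIPmentation, a chromatin immunoprecipitation in which a transposase inserts the sequencing adapters on the antibody-bound chromatin. Antibodies against EZH2, SUZ12, H3K27me3, H3K4me3, H3K27ac, N-MYC and p300 gave 1 library and 1 list each. The other 2 of the 9 samples were input libraries without a list. All samples carry the same strain, tissue and tumour label, no sample is from normal thymus, and the labels name neither the promoter of the MYCN allele nor the animal behind each immunoprecipitation.

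In the nervous system, each variable exon of the alpha and gamma clusters has its own promoter and is spliced to constant exons shared by the whole cluster, whereas the beta genes are single exons that use no constant exon. Most members are switched on in a small, random set in each neuron, by loops between promoters and distant enhancers that depend on CTCF and cohesin, and the resulting surface code lets a neuron tell its own branches from those of others. The C-type members (Pcdhac1, Pcdhac2, Pcdhgc3, Pcdhgc4 and Pcdhgc5) are under separate control and are expressed more uniformly. EZH2 and SUZ12 are subunits of Polycomb repressive complex 2, which deposits H3K27me3, a mark of silent genes. H3K4me3 and H3K27ac are found at active promoters, and the acetyltransferase p300 is a writer of H3K27ac.

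Most members carried no call at all. Within 1 kb of the start, 45 of the 58 members had no peak in any of the 7 lists, whereas 29.9% of 17492 protein-coding genes with a given strand, none of them on chromosome 18, had none. H3K27me3 was called at 8 members (all genes 23.8%) and H3K4me3 at 7 (all genes 49.6%). H3K27ac was called at 4 (all genes 49.8%), EZH2 at 1 (all genes 43.1%) and SUZ12 at 1 (all genes 12.2%). N-MYC and p300 were called at none (all genes 31.6% and 38.3%). The members with a call were thus fewer than the background share in every list. With 1 library per antibody there is no replicate and no test. These are counts of neighbouring genes in single lists, and a member without a peak may still carry signal below the authors' threshold.

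**Figure D1:**
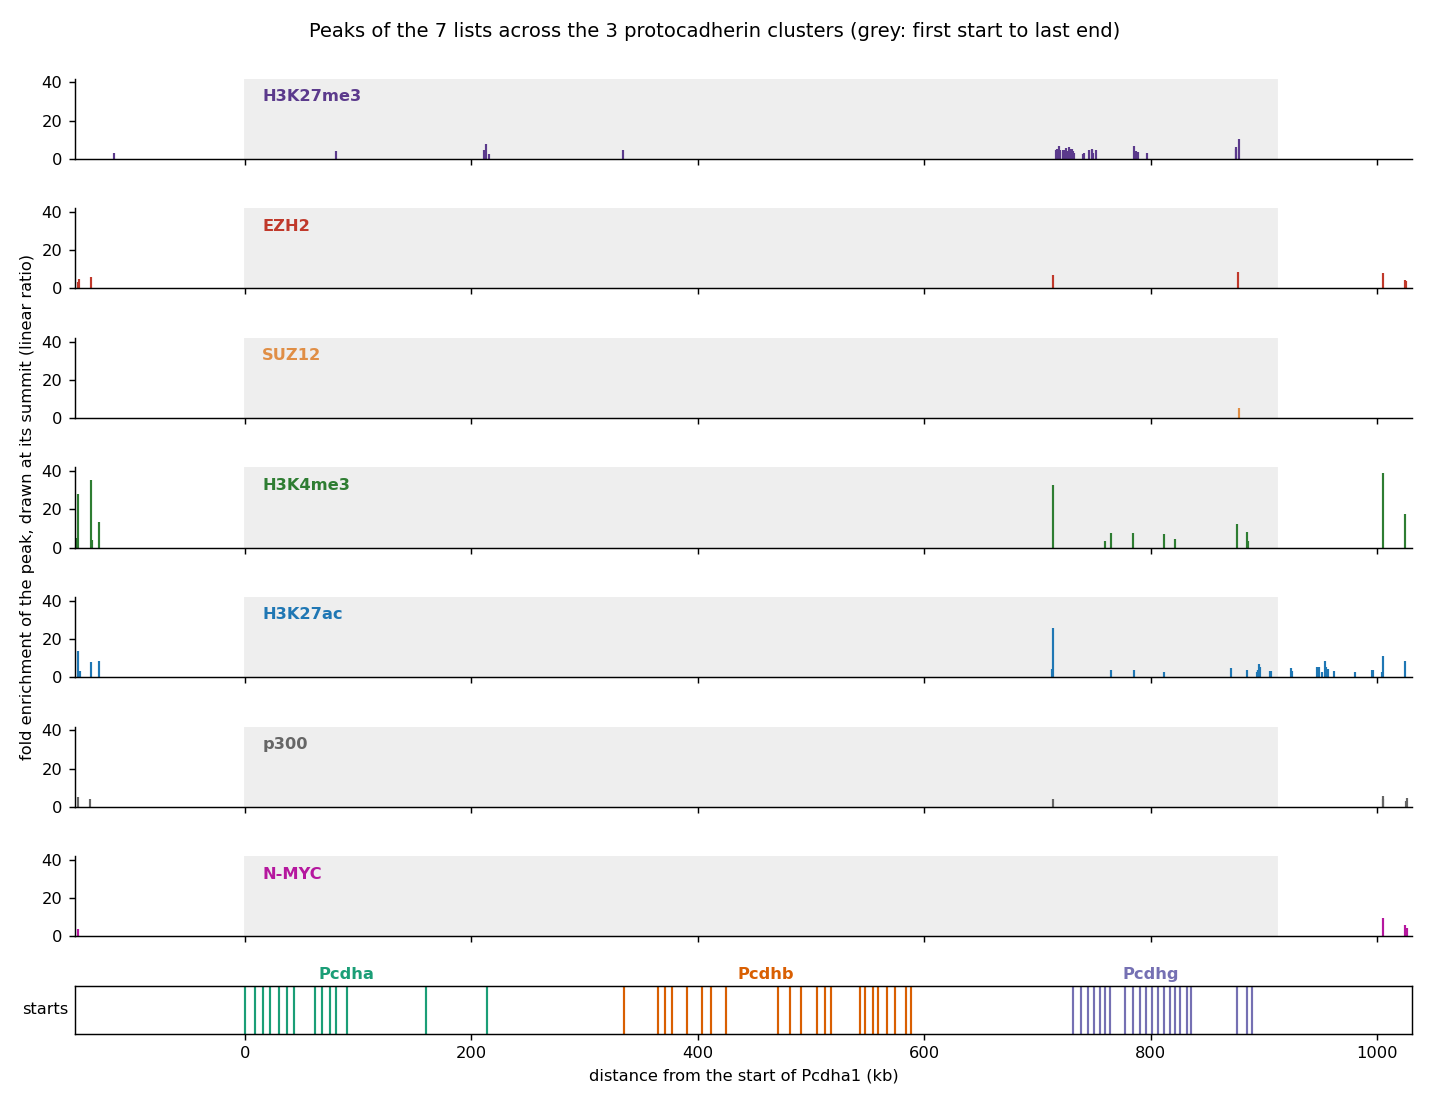
Peaks of each list along the region, drawn at their summits against the distance in kb from the start of Pcdha1, with the authors' fold enrichment as height and member starts as ticks in the lowest row. Calls were sparse over the alpha and beta clusters and gathered in and before the gamma cluster, while the tall H3K4me3 peak between beta and gamma, of fold enrichment 32.8, belongs to Taf7.

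The 3 clusters differed in what they held. The alpha cluster spans 258.6 kb (chromosome 18, 36930285 to 37188897), and its 4 peaks were all H3K27me3. They covered 1.72% of its length, against 3.45% of chromosome 18 and 4.13% of the 21 chromosomes. The beta cluster spans 256.4 kb (37264998 to 37521419) and held no peak of any list. The gamma cluster spans 180.1 kb (37661775 to 37841873) and held 17 H3K27me3 peaks, which covered 6.75% of it. With lists of equal length this share was 2.17%, against 1.47% of the chromosome, and with peaks within 3 kb joined it was 10.9%, against 5.27%. It also held 12 H3K27ac peaks (2.84% of its length, against 2.26% of the chromosome), 8 H3K4me3 peaks (3.43% against 0.906%), 1 EZH2 peak and 1 SUZ12 peak. No N-MYC peak lay anywhere between the start of Pcdha1 and the end of the gamma cluster, and the 1 p300 peak in that interval was at Taf7. The nearest N-MYC peak to any member start was 115.8 kb away, beyond the gamma cluster.

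Among the 14 alpha members, 12 had no call within 1 kb of the start and none had H3K4me3, H3K27ac, EZH2 or SUZ12. H3K27me3 was called at Pcdhac2, a C-type member needed for the spacing of serotonergic axons, with a fold enrichment of 7.67 over the authors' background and a peak of 3719 bp (37141681 to 37145399) that ran across the start. This peak exceeded 93.7% of all H3K27me3 peaks in fold enrichment, but was below the median of 9.08 over genes with an H3K27me3 peak at the start. The other alpha call was a 325 bp H3K27me3 peak of fold enrichment 3.86 with its summit at −343 bp from the start of Pcdha11, a variable member outside the C-type. The second alpha C-type member, Pcdhac1, had no call, and its nearest H3K27me3 peak was 50.9 kb away. Pcdha1 to Pcdha10 lay together in a stretch of 196.0 kb without a peak of any list, and the nearest EZH2 peak to an alpha start was 135.7 kb away.

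Of the 22 beta members, 21 had no call. The exception was Pcdhb1, with a 232 bp H3K27me3 peak of fold enrichment 4.80 whose summit lay at −579 bp from the annotated start, just outside the cluster. From the end of that peak to the first H3K27ac peak near Taf7, 378.0 kb (37264564 to 37642567) had no peak of any list, and this stretch held the starts of all 22 beta members. No window that stays within this stretch could therefore add a call at Pcdhb2 to Pcdhb22.

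The gamma cluster held 10 of the 13 members with a call. H3K4me3 was called at 7 of its 22 members, or 31.8% (all genes 49.6%), and at no alpha or beta member. With all lists limited to the 9798 most significant peaks, the length of the shortest list, Pcdhgc3 alone of the 7 was left. In chromosomal order these were Pcdhgb2 (fold enrichment 3.69), Pcdhga5 (7.67), Pcdhga7 (7.45), Pcdhgb6 (7.29), Pcdhgb7 (4.68), Pcdhgc3 (12.3) and Pcdhgc4 (8.15). All 7 summits lay 37 to 336 bp after the annotated start. The calls were interspersed with members without any: Pcdhga6, between Pcdhga5 and Pcdhga7, had no peak in any list, nor did Pcdhgb5 and Pcdhga9 before Pcdhgb6.

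These H3K4me3 peaks were weak beside those of other genes. Their median fold enrichment was 7.45 (3.69 to 12.3), against a median of 26.6 over the 8672 genes with an H3K4me3 peak at the start, of which the lowest 5% were at or under 5.58. Their widths ran from 369 to 1683 bp with a median of 673 bp, and the median of the whole list was 1655 bp. Pcdhgc3, the strongest, stood above 45.1% of all H3K4me3 peaks, and Pcdhgb2, the weakest, above 7.44%.

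H3K27ac accompanied H3K4me3 at 4 members (all genes with both 46.0%), namely Pcdhga5 (fold enrichment 3.96), Pcdhga7 (3.95), Pcdhgb6 (2.77) and Pcdhgc4 (3.96), a C-type member required for the survival of interneurons. Each H3K27ac peak was between 217 and 448 bp wide and had its summit 94 to 483 bp after the start. At the other 3 members with H3K4me3, Pcdhgb2, Pcdhgb7 and Pcdhgc3, no H3K27ac peak reached the window. None of the 7 members with H3K4me3 had N-MYC or p300, whereas 40.1% of all genes had H3K4me3 with at least 1 of these. The peaks at Pcdhga5, Pcdhga7 and Pcdhgc4 stood above 46.8 to 47.5% of the H3K27ac list, close to its median of 4.04, and that at Pcdhgb6 above 5.46%. Beside peaks at gene starts they were weak. Over the 8719 genes with an H3K27ac peak at the start the median was 12.35. The lowest 5% of these genes were at or under 4.01, which is above all 4 member values. At a fold enrichment of at least 4 none of the 4 was left.

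**Figure D2:**
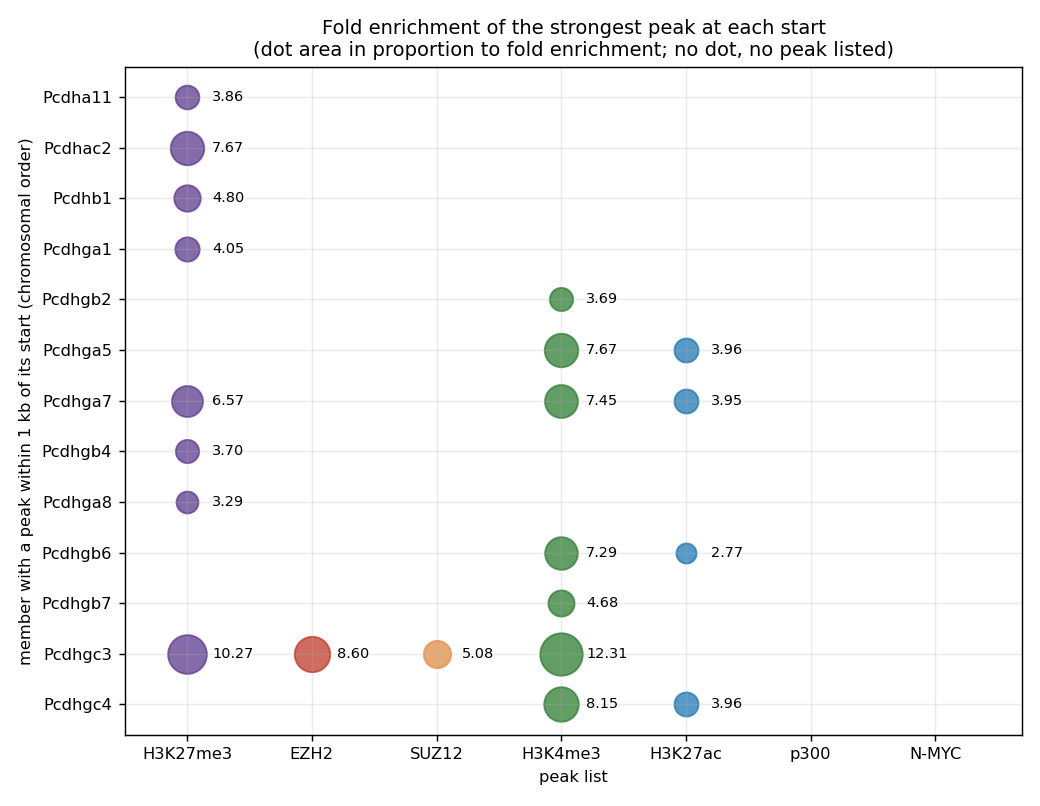
Fold enrichment of the strongest peak within 1 kb of the start for the 13 members with any call (rows, in chromosomal order) in each of the 7 lists (columns), with dot area in proportion to the value. H3K4me3 and H3K27ac appear in gamma rows alone, Pcdhgc3 is the row with EZH2 and SUZ12, and the p300 and N-MYC columns are empty.

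H3K27me3 was called at 5 of the 22 gamma members, or 22.7%, near the 23.8% of all genes. With all lists limited to the length of the shortest, Pcdhgc3 was the gamma member left. At Pcdhgc3 the fold enrichment was 10.3, the highest of the 58 members, in a peak of 3911 bp (37806418 to 37810328), and at Pcdhga7 it was 6.57 in a peak of 1614 bp (37714783 to 37716396). Pcdhga1 (4.05), Pcdhgb4 (3.70) and Pcdhga8 (3.29) had peaks of lower fold enrichment. Over the 8 members of all clusters the median was 4.42, against 9.08 over the 4167 genes with an H3K27me3 peak at the start. H3K27me3 without EZH2 or SUZ12 in the same window was found at 7 of the 58 members, or 12.1%, which is near the share of all genes (10.1%). Pcdhgb4 was just inside the window, with its peak 0.976 kb before the start, and Pcdhgb1 and Pcdhga3 were just outside it, with peaks beginning 1.01 and 1.04 kb after the start.

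The variable exons extend further than 1 kb past the start, and exon positions were not used here. In a window from 1 kb before to 3 kb after the start, H3K27me3 was called at 11 members (all genes 25.6%). The 3 additions were Pcdhga2, Pcdhga3 and Pcdhgb1. The counts for the other 6 lists were as before.

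Much of the H3K27me3 near the gamma genes lay ahead of the first of them. When peaks within 3 kb of each other were joined, the longest stretch in the region ran for 17.2 kb (37646752 to 37663928), from between Taf7 and Pcdhga1 to just past the start of Pcdhga1. It held 18 peaks with fold enrichments from 2.92 to 6.56, and 9.28 kb of it lay under a peak. No EZH2 or SUZ12 peak fell in this stretch. The H3K27me3 list holds 123056 peaks, against 18730 for EZH2 and 11100 for SUZ12. The share of all H3K27me3 stretches without either was not counted. Shorter joined stretches lay over Pcdhga3 and Pcdhgb1 (6.25 kb, 5 peaks), Pcdhga7 and Pcdhgb4 (4.62 kb, 5 peaks), Pcdhgc3 (5.40 kb, 3 peaks) and Pcdhac2 (4.66 kb, 3 peaks).

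Pcdhgc3, a gamma C-type member whose product binds the Wnt pathway scaffold Axin1, was the single member with Polycomb complex subunits. EZH2 was called there with a fold enrichment of 8.60 (37806122 to 37808940), above 92.0% of the EZH2 list, and SUZ12 with 5.08 (37806246 to 37808693), above 75.7% of the SUZ12 list. Over all genes with such a peak at the start the median was 5.8 for EZH2 and 5.7 for SUZ12. The combination of EZH2, SUZ12 and H3K27me3 was found at the start of 11.2% of all genes. The SUZ12 and H3K27me3 summits were 10 bp apart, 1395 and 1385 bp after the start, the EZH2 summit lay 859 bp after it, and the H3K4me3 summit 228 bp after it. The H3K4me3 peak (37806027 to 37807709) shared 1292 bp with the strongest H3K27me3 peak, 1588 bp with the EZH2 peak and 1464 bp with the SUZ12 peak. The start of Pcdhgc3 thus lay under H3K4me3, EZH2 and SUZ12 peaks, with the Polycomb summits further downstream than that of H3K4me3. The SUZ12 call rests on the near part of the peak: with the summit required within 1 kb, no member had SUZ12.

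H3K4me3 and H3K27me3 were called together at 2 members, Pcdhgc3 and Pcdhga7 (all genes 6.77%). At Pcdhga7 their peaks shared 469 bp with the summits 865 bp apart, and the H3K27ac peak (37714847 to 37715255) lay wholly inside the H3K27me3 peak. Neither EZH2 nor SUZ12 was called at Pcdhga7. Whether both marks sat on the same chromosomes, or on different alleles or cells, cannot be told apart in these lists.

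**Figure D3:**
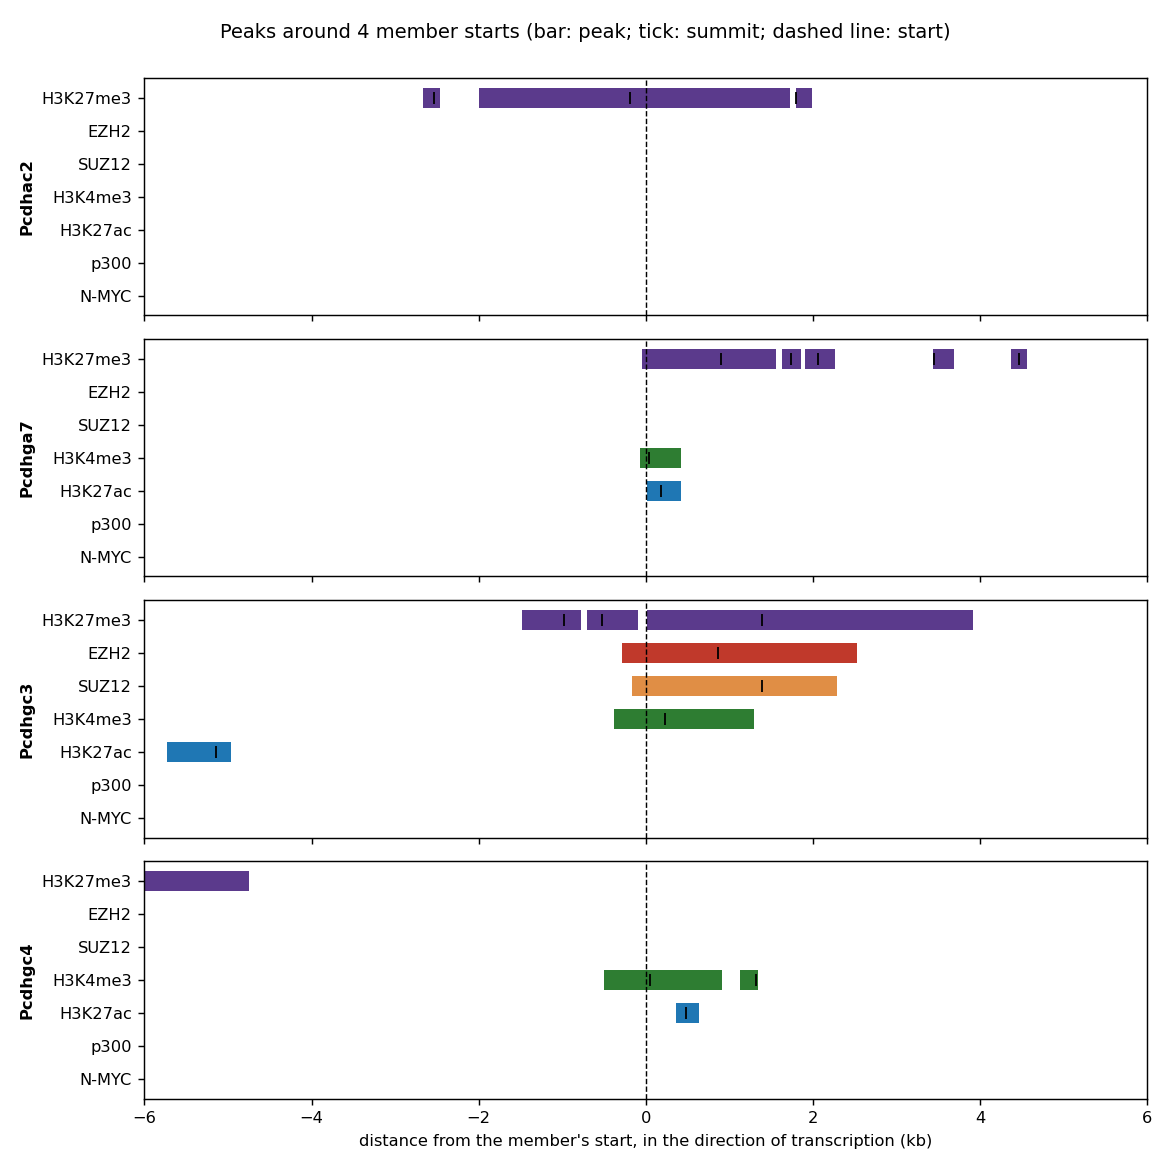
Peaks of the 7 lists within 6 kb of the starts of Pcdhac2, Pcdhga7, Pcdhgc3 and Pcdhgc4, as bars with a tick at the summit, against the distance in kb from the start in the direction of transcription. Pcdhac2 shows H3K27me3 across its start with no other mark, and Pcdhga7 shows H3K4me3 and H3K27ac over the first part of an H3K27me3 peak. Pcdhgc3 shows EZH2, SUZ12, H3K27me3 and H3K4me3, with no H3K27ac peak at its start. Pcdhgc4 shows H3K4me3 and H3K27ac without a Polycomb feature at the start.

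The 5 C-type members therefore fell into 4 patterns. Pcdhgc3 had EZH2, SUZ12, H3K27me3 and H3K4me3, Pcdhgc4 had H3K4me3 and H3K27ac, Pcdhac2 had H3K27me3 alone, and Pcdhac1 and Pcdhgc5 had none of the 7. Of the 53 members of other types, 43 had no call, 6 had H3K27me3, 5 had H3K4me3 and 3 had H3K27ac. Pcdhgc5 was 3.12 kb from the nearest H3K4me3 peak, which lay toward Pcdhgc4.

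Within the gamma cluster 8 of the 12 H3K27ac peaks lay more than 1 kb from any member start. What share of all 87072 H3K27ac peaks lies away from gene starts was not counted. A joined stretch of 3.13 kb (37823935 to 37827069, 5 peaks) began after the start of Pcdhgc5, in the part of the cluster that all gamma transcripts span. Its strongest peak had a fold enrichment of 6.87, higher than at any member start, and a summit 5.85 kb after the start of Pcdhgc5. A single H3K27ac peak of 4.76 lay 5.15 kb before Pcdhgc3, and a pair of 3.37 and 2.98 lay 16.3 and 16.7 kb after the start of Pcdhgc5. No p300 peak overlapped any of them. The p300 list is far shorter (15646 peaks), and the share of all H3K27ac peaks without p300 was not counted.

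The genes around and between the clusters had a different set of calls. In all, 15 other protein-coding genes lay within 200 kb of the clusters or between them, and their strand was not used, so both ends were read. EZH2 was called at 10 (within 1 kb of either end in 44.3% of all genes), H3K4me3 at 13 (50%), H3K27ac at 14 (52.4%), N-MYC at 8 (32%) and p300 at 12 (38.4%). SUZ12 and H3K27me3 were called at none (13.8% and 27.6%). Taf7, a subunit of the general transcription factor TFIID that lies between the beta and gamma clusters, had H3K4me3 (fold enrichment 32.8), H3K27ac (25.6), EZH2 (7.22) and p300 (4.22), and its neighbour Slc25a2, a mitochondrial ornithine carrier gene, had no call. Zmat2, the nearest gene before the alpha cluster, had H3K4me3 (35.6), H3K27ac (7.89), EZH2 (6.22) and p300 (4.15). Diaph1, a formin gene directly after the gamma cluster, had H3K4me3 (38.8), H3K27ac (11.3), N-MYC (9.67), EZH2 (7.81) and p300 (5.77). The H3K4me3 fold enrichments of these flanking genes, 10.9 to 38.8 with a median of 32.8, overlapped the range of the members, 3.69 to 12.3, at Arap3 alone. Some adjacent genes, such as Hars2 and Zmat2, share a peak.

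**Figure D4:**
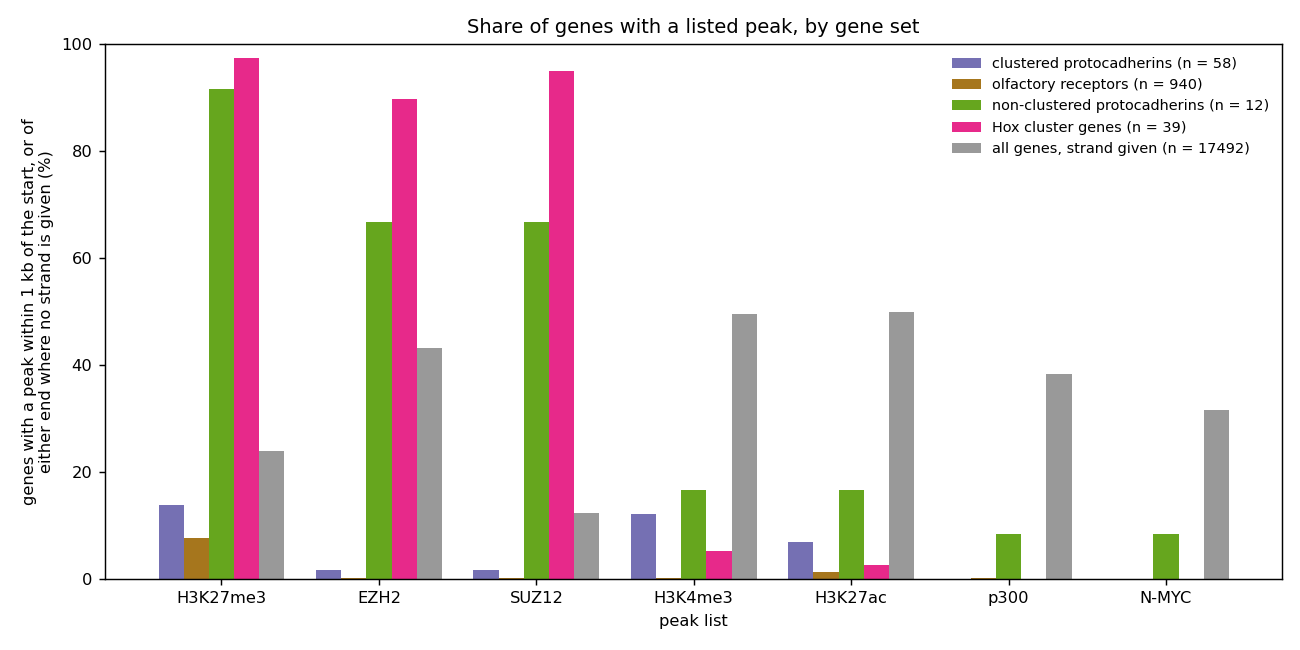
Percentage of genes with a peak within 1 kb of the start (either end where no strand is given) in each list, for the clustered protocadherins, the olfactory receptor genes, the non-clustered protocadherins, the Hox cluster genes and all genes with a given strand. The clustered protocadherins reach 13.8% for H3K27me3 and 12.1% for H3K4me3, whereas the non-clustered protocadherins reach 91.7% and the Hox genes 97.4% for H3K27me3.

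Protocadherins outside the clusters were read at the start where strand was given (9 of 12) and at both ends otherwise (3 of 12), and so were the Hox genes (22 and 17 of 39), which gives these genes more room for a call than the members had. H3K27me3 was called at 11 of 12 non-clustered protocadherins (all genes 23.8%), EZH2 at 8 (43.1%), SUZ12 at 8 (12.2%), and all 3 together at 7 (11.2%). Pcdh7 was the exception without H3K27me3, with H3K4me3 (24.6), EZH2, SUZ12, H3K27ac, N-MYC and p300. The highest H3K27me3 fold enrichments were at Pcdh1 (19.8), Pcdh17 (19.4) and Pcdh10 (17.8), above the 10.3 of Pcdhgc3. Among 39 genes of the Hox clusters, H3K27me3 was called at 38, SUZ12 at 37 and EZH2 at 35, each above its share of all genes. Many Hox genes share a broad peak, so these calls are not separate. A single H3K27me3 peak of 62434 bp served Hoxd13 to Hoxd3, and another of 149987 bp served Hoxc13 to Hoxc4. The 940 olfactory receptor genes with a given strand, another large family in clusters, had no call in 91.2% of cases and H3K27me3 in 7.55%. The clustered protocadherins, with no call in 77.6% of cases, lay nearer to the olfactory receptor genes than to the other 2 sets in the EZH2, SUZ12 and H3K27me3 lists. In the H3K4me3 list the order differed: the clustered protocadherins (12.1%) lay between the non-clustered protocadherins (16.7%) and the Hox genes (5.13%). The clustered share also lay above that of the olfactory receptor genes (0.106%). The non-clustered share was 2 of 12 genes, Pcdh7 and Pcdh1, in this list and for H3K27ac. Pcdh1 was read at both ends, and its H3K4me3 peak (38184879 to 38187280) lay at the opposite end from its H3K27me3 peak (38200282 to 38217530). Which end is its start was not given, and the place of the non-clustered protocadherins in both lists depends on it. For H3K27ac the clustered protocadherins (6.90%) lay nearest to the Hox genes (2.56%), with 12 of the 940 olfactory receptor genes called. These are shares in single lists, and no test of the differences was made.

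Genes known to control or transmit the action of clustered protocadherins mostly had H3K4me3 or H3K27ac. Of 20 such genes, 14 had H3K4me3 (all genes 49.6%), 16 H3K27ac (49.8%), 14 p300 (38.3%), 12 EZH2 (43.1%) and 10 N-MYC (31.6%). They included Ctcf (H3K4me3 fold enrichment 39.8, N-MYC 9.15), the cohesin genes Smc3 (38.0) and Stag2 (35.2), and Smchd1, needed to silence the clusters (38.8, N-MYC 11.8). The DNA methyltransferase gene Dnmt3b had H3K4me3 (32.4) and N-MYC (8.25), and Rest, a repressor of neuronal genes, had H3K4me3 (34.2) and N-MYC (6.12). H3K27me3 was called at Ptk2 (15.7), which encodes a kinase bound by protocadherin tails and was the 1 gene with SUZ12 (9.65), and at the H3K9 methyltransferase gene Setdb1 (4.47). The cohesin gene Rad21 (33.9) and the DNA methyltransferase gene Dnmt1 (5.86) had H3K27ac alone, with the summits more than 1 kb from the position read. Nipbl, Stag1, Dnmt3a and Axin1 had no call, but the outermost annotated start can lie away from the promoter in use. Strand was given for 13 of the 20, and the other 7 were read at both ends, for which the shares of all genes are the slightly higher ones given for the flanking genes.

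The label of the cells was checked against markers. Those without a given strand, such as 4 of 12 T cell and 2 of 5 myeloid genes, were read at both ends. This gives them more room for a call. H3K4me3 and H3K27ac were called at 11 of 12 T cell genes (all genes with both 46.0%), with H3K4me3 fold enrichments from 18.8 to 41.8. Cd8a was the exception and had H3K27me3 (8.29), which was also called at Lef1 (9.40) and Bcl11b (4.69). In that order the H3K27me3 summits lay at 1019, −3065 and −1534 bp from the position read, each outside the window. Among genes of other cell types, H3K4me3 was called at the B cell gene Cd79a (4.74), none of 5 myeloid genes, 1 of 5 thymic epithelial genes (Epcam, 19.3), 1 of 5 neuronal genes (Map2, 14.4) and the erythroid genes Klf1 (19.8) and Hba-a1 (18.3). H3K27ac without H3K4me3 was called at 4 of the 5 myeloid genes, with the highest values at Cd68 (25.3) and Spi1 (19.8). The peak at Cd68 had its summit 2970 bp from the position read, outside the window, and only its edge reached in. H3K27me3 was called at the myeloid genes Spi1 (5.51) and Lyz2 (7.53). Spi1 was read at both ends, and its H3K27me3 peak (91115758 to 91116675) lay at the opposite end from its H3K27ac peak (91080429 to 91087478). In bulk chromatin a weak call can come from few cells or from little signal in each, and these cannot be told apart. The part of non-T cells in the calls at the gamma members was not tested.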

How the data were processed

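Peaks were deposited by the authors as 1 list per antibody for 7 of 9 samples. FastQC, Bowtie2, SAMtools, MACS2 and deepTools and the build mm10 (GRCm38) are named in the submitters' processing notes, without settings or versions, and whether inputs served as controls is not given in the sources used here. Fold enrichment, as deposited, is a ratio on a linear scale. The deposited −log10 p-value and −log10 q-value served for thresholds, and the smallest −log10 q was 2.00 to 2.08. A deposited whole-number score and the summit offset complete each line, and the score entered no result. Read totals are not given in the sources used here, and the depth is unknown.

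Gene positions came from RefSeq, GRCm38.p6, with strand from its promoter table, which holds no gene of chromosome 18. Members were read from their lower coordinate, since all 14 alpha and all 22 gamma members end within 2 kb of each other, and beta genes are known to run the same way. Because exon positions were not given, the main window was the start ± 1 kb, as planned for that case, and 1 bp of overlap counted. Member starts were at least 3.78 kb apart. Covered percentages of chromosomes run from the first to the last annotated gene. Planned promoter sequence features were not computed, as no member has a sequence in the tables used here. Counts and overlaps were made in Python 3.11.15 with pandas 2.3.3 and tested on simulated data. Members and lists were chosen with earlier results of these data known. The rule for named genes took all C-type members, all members with a call in lists with 10 or fewer, the 3 strongest or any exception in other sets, regulators with SUZ12 or H3K27me3, and the nearest flanking genes. Some B cell and erythroid markers are not reported here. Other genes named were chosen after their values were seen.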

Additional observations from a re-analysis of the deposited data

How the results depend on the processing

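Of 45 alternative member counts for the 5 lists with any member called, 39 stayed within 1.5 times the reported count. The counts of 0 for N-MYC and p300 could change only with a wider window, and stayed at 0 with ± 2 kb and with 1 kb before to 3 kb after the start. Requiring the summit inside the window left 0 members with SUZ12, because the summit at Pcdhgc3 lies beyond 1 kb. At a fold enrichment of at least 4, H3K27me3 was left at 5 members and H3K27ac at 0. With every list limited to its 9798 most significant peaks, H3K27me3 was left at 2 members, Pcdhac2 and Pcdhgc3, H3K4me3 at 1, Pcdhgc3, and H3K27ac at 0. The H3K27me3 share of the alpha cluster was 1.64% at a q-value of at most 1e-05, 1.51% at a fold enrichment of at least 4, 1.93% with peaks within 3 kb joined, 1.44% with lists of equal length and 1.49% with 20 kb added on either side. In that order the gamma cluster had 4.87, 4.87, 10.9, 2.17 and 8.92%. The beta cluster stayed at 0% except with 20 kb added (0.0783%). No paired analysis was possible because each antibody had 1 library. Where no cause is given, the cause was not tested. The unknown depth limits what a missing call can say.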

Other observations

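The longest stretches without a call at the members were set beside all others in these lists. The 378.0 kb without a peak around the beta genes ranked 34 among 5877 such stretches on chromosome 18 and 1034 among 205407 on the 21 chromosomes. The stretch of 196.0 kb over Pcdha1 to Pcdha10 ranked 72 on the chromosome, and that of 130.3 kb from Pcdha11 to Pcdhac1 ranked 104.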
